A study of Mus musculus with 8 samples.

Results

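The genes examined here are Bmp1, Bmp2, Bmp4, Bmp5, Bmp6, Bmp7, Bmp8a and Bmp8b, the 8 rows with those gene symbols among the 19950 genes of a bulk RNA sequencing table from whole mouse embryos at embryonic day 6.5. Membership was set by gene symbol alone. The table compared 4 embryos labelled WT with 4 embryos labelled as an Axin1;Axin2 mutant. Axin1 and Axin2 hold together the machinery that degrades β-catenin and thereby keep canonical WNT signalling in check. The labels give no treatment, strain, litter, allele structure or Cre driver for either group, and p-values therefore measure only the spread between these embryos. Replicates carry the numbers 1, 2, 4 and 5 in each genotype, which are names and do not pair the embryos.

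Bone morphogenetic proteins are secreted dimers of the TGF-β family. They are made as precursors that proprotein convertases cleave, and they bind paired type I and type II receptor kinases, which phosphorylate SMAD1, SMAD5 and SMAD9. These act with SMAD4 on target genes such as the Id and Msx genes, while extracellular antagonists such as noggin and chordin hold the ligands away from their receptors. In the mouse egg cylinder, Bmp4 and Bmp8b from the extraembryonic ectoderm and Bmp2 from the visceral endoderm are known for their part in forming germ cells, posterior mesoderm and the allantois. Bmp1 carries the name but is not a ligand of this family. It encodes an astacin metalloprotease that cleaves procollagens and the antagonist chordin.

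Reads assigned to genes ranged from 26615732 to 36778164 per library. The deposited values, called scaled counts here, are gene counts after division by a size factor, and errors are SDs over the 4 libraries of a genotype. Axin1 fell from 4565 ± 1081 to 1996 ± 204 scaled counts (limma log2 fold change -1.16, adjusted p = 0.00269), and transcripts remained in every mutant library. Axin2 had 266 ± 32.6 and 370.5 ± 113 and did not pass the test (adjusted p = 0.190). Several libraries stood apart. Mutant replicate 1 had the lowest value of all 8 libraries for 8 of 10 extraembryonic ectoderm markers, with Elf5 at 113 against 341 to 505 elsewhere. It had the highest value for 5 of 9 extraembryonic mesoderm markers. Mutant replicate 4 had the highest value for 13 of 14 maternal decidua markers, and the summed decidua markers were 658 to 2552 in WT and 18746, 6028, 57165 and 31004 in mutant replicates 1, 2, 4 and 5. The markers did not all rise alike. In mutant replicate 1 the largest parts of the sum were Col1a1 (7837) and Des (7413). Prl8a2 was at 135 and 479 in mutant replicates 1 and 2, within its WT range of 21.7 to 1129. Summed transcripts of 4 Y-linked genes were at most 14.2 in WT replicates 2 and 5 and at least 5243.5 in the other 6 libraries, so the genotypes differ in their mix of sexes. Results were therefore also computed without mutant replicates 4 and 5 and without WT replicates 2 and 5.

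Bmp2, Bmp4, Bmp5 and Bmp7 rose in the mutants, and Bmp1, Bmp6, Bmp8a and Bmp8b did not pass the test. All 8 genes had enough counts to be tested, 4 passed as higher and 0 as lower, while limma called 8.03% of the 15600 tested genes higher and 7.55% lower, 15.6% in all. The same 4 passed with edgeR on recovered reads, which called 8.08% of genes higher and 7.49% lower, and with DESeq2, which called 11.8% higher and 10.3% lower. With each library centred on its median, the calls over all genes were 6.60% higher and 10.2% lower. For all 4 genes that rose, every mutant library lay above every WT library, which was the case for 11.2% of tested genes, and 22.4% of tested genes were without overlap in either direction. The median log2 fold change over the 8 genes was 0.9997, against -0.0018 over all tested genes. In whole embryos, a change in the number of cells of a type and a change in RNA per cell cannot be told apart.

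**Figure D1:**
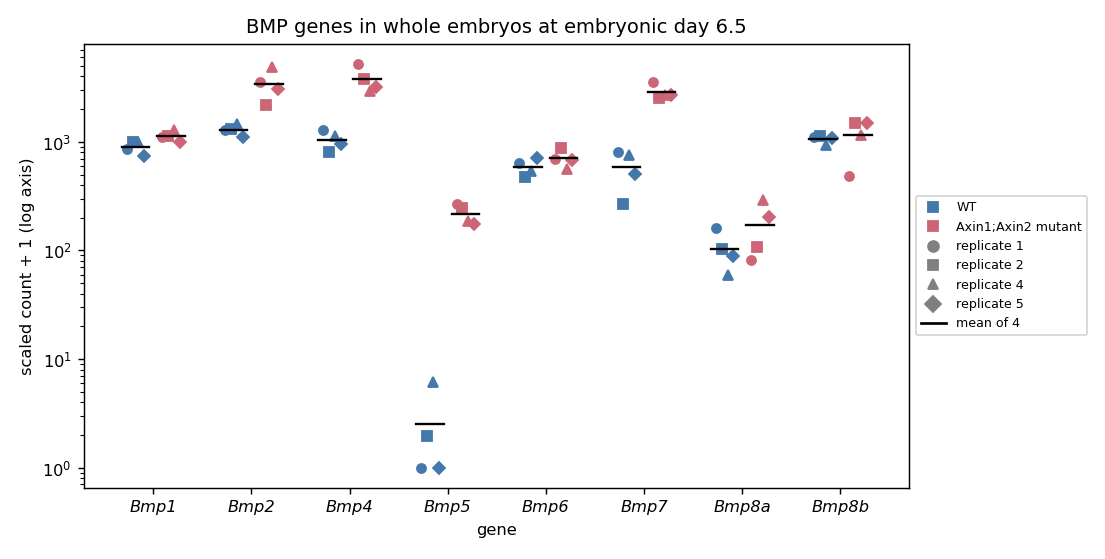
Scaled counts plus 1, on a log axis, of the 8 genes in each of the 4 WT and 4 mutant libraries, with a marker shape for each replicate and lines at the group means. The groups are separate for Bmp2, Bmp4, Bmp5 and Bmp7 and overlap for Bmp1, Bmp6, Bmp8a and Bmp8b.

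Bmp4, the ligand that extraembryonic ectoderm sends to the proximal epiblast and that mesoderm formation depends on, lies on the minus strand of chromosome 14 (GRCm38 chr14:46383520-46390669). In WT replicates 1, 2, 4 and 5 it had 1297, 802, 1119 and 957 scaled counts. In mutant replicates 1, 2, 4 and 5 it had 5190.3, 3754, 2952 and 3187 scaled counts. The lowest mutant embryo was thus above the highest WT embryo, and mutant replicate 1 was the highest of all. The mean went from 1044 ± 213 to 3771 ± 1004, a rise with a fitted fold of 3.58 on the log2(scaled count + 1) scale (log2 fold change 1.84, SE 0.20, limma adjusted p = 0.000459). Over the alternatives tried, the log2 fold change of Bmp4 ran from 1.61 to 2.10 and the call held in all 20. Its exons share 89 bases with Gm15217 on the other strand.

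Summed extraembryonic mesoderm markers, like Bmp4, were higher in the mutants. Within WT these sums did not follow Bmp4, with the largest in replicate 2, where Bmp4 was lowest. Hand1 alone made up 5301 of that sum. Of the 9 markers, 3 (Foxf1, Pmp22 and Kdr) were, like Bmp4, lowest in WT replicate 2, and the others were not. The sums were 3911 to 7119 in WT and 18230 to 43305 in the mutants, with 7 of the 8 tested markers called higher. The largest sum, like the highest Bmp4 value, was in mutant replicate 1. Tbx4, called higher, entered the test only through its mutant libraries. Extraembryonic ectoderm markers, from the tissue known for Bmp4 at this stage, were called higher for 2 of 10 (Cdx2 and Hand1) and lower for none. Their sums were 32945 to 40786 in WT and 37202 to 57922 in the mutants. The smallest mutant sum, in replicate 1, held 18013 from Hand1 and 4987 from Cdx2. The other 8 of the 10 markers had their lowest value of all libraries there. Of 9 epiblast markers, 9 were called lower. Over all tested genes, 8.03% were called higher and 7.55% lower. The part of these tissues in the Bmp4 value was not tested.

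Bmp2, a close relative of Bmp4 that is known from visceral endoderm and from the decidua of the uterus, lies on the plus strand of chromosome 2 (chr2:133552159-133562885). Its WT values were 1279, 1309, 1450.1 and 1110.4 scaled counts in replicates 1, 2, 4 and 5. Its mutant values were 3589, 2202, 4880.4 and 3080.1 scaled counts in the same order. All mutant embryos were higher than all WT embryos, and mutant replicate 4 was the highest while replicate 2 was the lowest of its group. The mean went from 1287 ± 139 to 3438 ± 1120, a rise with a fitted fold of 2.58 on the log2(scaled count + 1) scale (log2 fold change 1.36, SE 0.21, limma adjusted p = 0.00280).

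Among the mutants, the highest and the lowest Bmp2 value fell in the libraries with the highest and the lowest sum of maternal decidua markers, replicates 4 and 2. Replicates 1 and 5 were in the reverse order, with Bmp2 at 3589 and 3080.1 and sums of 18746 and 31004. The part of decidua in the Bmp2 value was not tested. Of the 14 decidua markers 9 were called higher, 0 lower and 5 did not pass, and none was at 0 in any library. The shares over all tested genes were 8.03% higher and 7.55% lower. Prl8a2, a prolactin-family gene of the decidua, ranged from 21.7 to 1129 in WT and from 135 to 6283 in the mutants. Without mutant replicates 4 and 5, Bmp2 had a log2 fold change of 1.13 and an adjusted p of 0.0150 by limma. The mutants kept, replicates 1 and 2, had decidua sums of 18746 and 6028 against at most 2552 in WT. This fit therefore does not remove the difference in these sums. Col1a1 made up 7837 and 3421 of them. Prl8a2, Prl3c1, Dcn and Cryab were not above their WT ranges in mutant replicates 1 and 2. The 9 markers called higher were above every WT library in every mutant library. Visceral endoderm markers were called lower for 2 of 11 and higher for none, with sums of 133052 to 160047 in WT and 113227 to 166632 in the mutants.

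Bmp7, a ligand of the subgroup that also holds Bmp5, Bmp6 and the Bmp8 genes, lies on the minus strand of chromosome 2 (chr2:172868012-172940321). WT replicates 1, 2, 4 and 5 had 812, 265, 758 and 507 scaled counts of Bmp7. Mutant replicates 1, 2, 4 and 5 had 3575, 2549.9, 2693 and 2718 scaled counts. The mutants lay well above WT, and within WT replicate 2 was the lowest embryo. The mean went from 585 ± 252 to 2884 ± 467, a rise with a fitted fold of 5.32 on the log2(scaled count + 1) scale (log2 fold change 2.41, SE 0.32, limma adjusted p = 0.00128). Without WT replicate 2 the log2 fold change was 2.07, and without WT replicates 2 and 5 it was 1.86 with an adjusted p of 0.00167. Among the mutants, Bmp7 was highest in replicate 1, where Bmp4 and the summed extraembryonic mesoderm markers were also highest.

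Bmp5, known in the mouse for its part with Bmp7 in the allantois and heart, lies on the plus strand of chromosome 9 (chr9:75775364-75900310). It was counted as 0, 1, 6 and 0 reads in WT replicates 1, 2, 4 and 5. The mutants had 246, 266, 196 and 151 reads, or 265, 245, 185 and 173 scaled counts, in replicates 1, 2, 4 and 5. Bmp5 transcripts were thus near the limit of counting in WT embryos and present at a moderate level in every mutant embryo. Over each genotype there were 7 and 859 reads, and the ratio, corrected for library size, was 128 with a 95% interval of 62.0 to 320.2 that covers counting error only. The log2 fold change was 6.84 (SE 0.58, limma adjusted p = 0.000161), a value that depends on the pseudocount of 1 and was 7.48 with 0.5 and 5.13 with 5. The gene entered the test only through its mutant libraries. Exons of Gm26903, annotated as antisense, cover 1878 of its 4025 exon bases. Since the cDNA kit keeps no strand, reads there could come from either gene.

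**Figure D2:**
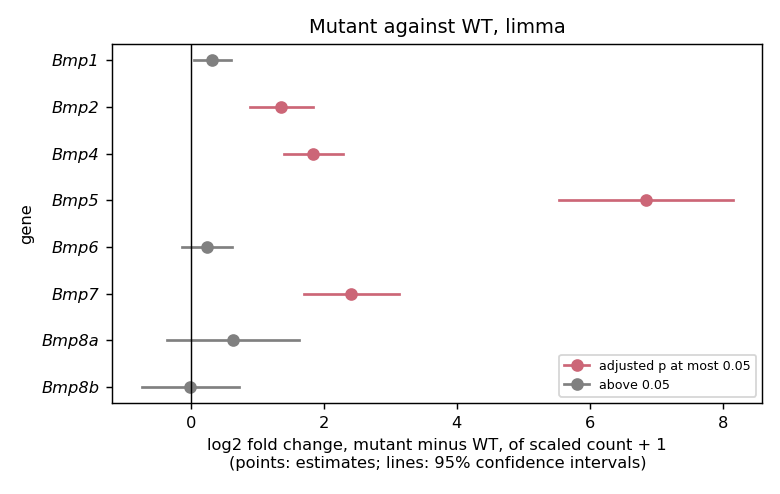
Fitted log2 fold changes of the 8 genes (mutant minus WT, log2 of scaled count plus 1) with their 95% intervals, which are not adjusted for the number of genes. The lowest bound among Bmp2, Bmp4, Bmp5 and Bmp7 is 0.89, the interval of Bmp1 runs from 0.05 to 0.60, those of Bmp6, Bmp8a and Bmp8b include 0.

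The bases upstream of Bmp4 and Bmp5 are shown because these genes were the ligand with the highest level per length in both genotypes and the ligand that was nearly uncounted in WT. Each run is the 250 bases before the annotated start on the gene's strand, 5′ to 3′, from RefSeq on GRCm38.p6. They are chr14:46390670-46390919 on the minus strand for Bmp4 and chr9:75775115-75775364 on the plus strand for Bmp5, and capitals mark the motif GGGCGG, the GC box bound by Sp1-type factors.
Bmp4: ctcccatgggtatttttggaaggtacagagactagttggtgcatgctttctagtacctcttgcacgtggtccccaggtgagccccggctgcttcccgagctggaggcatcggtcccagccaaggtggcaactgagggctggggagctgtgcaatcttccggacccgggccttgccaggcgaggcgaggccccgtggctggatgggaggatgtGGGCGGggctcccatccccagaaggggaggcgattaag
Bmp5: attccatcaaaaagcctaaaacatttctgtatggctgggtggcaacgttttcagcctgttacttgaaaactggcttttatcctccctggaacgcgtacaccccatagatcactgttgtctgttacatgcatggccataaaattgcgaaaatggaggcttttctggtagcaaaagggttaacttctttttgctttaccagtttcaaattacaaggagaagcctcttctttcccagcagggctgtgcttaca
The Bmp4 run had 63.2% G and C and 11 CpG pairs, with the GC box beginning 38 bases before the start. The Bmp5 run had 42.8% G and C, 4 CpG pairs and no GC box. Across 32851 promoters of the same length the median was 52.4% G and C, and 32.7% held a GC box on either strand. Of the 8 genes 5 had an entry, and GGGCGG was present in Bmp4, Bmp6, Bmp8a and Bmp8b. The letters CTTTGAT or CTTTGTT, the core of TCF/LEF sites, occur in 8.06% of promoters, and GGCGCC, a motif of SMAD proteins, in 9.59%. On either strand none of these letters was found in the 5 windows, which says nothing of binding there or elsewhere. Bmp1, Bmp2 and Bmp7 were not matched.

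Bmp6, best known for control of iron metabolism, did not pass the test. Its WT values were 643, 476, 543 and 703 scaled counts in replicates 1, 2, 4 and 5, and its mutant values 692, 875, 562 and 681. The groups overlapped, with WT replicate 2 lowest and mutant replicate 2 highest. The log2 fold change was 0.25 with a 95% interval of -0.13 to 0.62 (limma adjusted p = 0.371), so the interval of the change itself, not adjusted over genes, lies below a 2-fold rise. Its exons (chr13:38345107-38500302, plus strand) share 224 bases with Txndc5 on the other strand.

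Bmp8a and Bmp8b are neighbouring copies on chromosome 4, known for roles in spermatogenesis and, for Bmp8b, in germ cell induction. Bmp8a lies on the minus strand (chr4:123312645-123343252) and Bmp8b on the plus strand (chr4:123105165-123132099). Their coding sequences were 88.6% identical over 1195 aligned bases. The longest identical run had 182 bases, coding bases 451 to 632 of each in GENCODE M21, against at most 25 bases in the other 27 pairs of the 8 genes. It is shown 5′ to 3′ because a read from it cannot be assigned to either gene, and it has no capitals since every base is shared.
Bmp8a and Bmp8b: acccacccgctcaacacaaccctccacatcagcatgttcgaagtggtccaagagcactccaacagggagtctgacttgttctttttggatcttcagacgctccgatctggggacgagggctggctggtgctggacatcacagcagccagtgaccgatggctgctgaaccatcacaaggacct
In the genome the run crosses an exon junction, between chr4:123324593-123325163 on the minus strand for Bmp8a and chr4:123114693-123115262 on the plus strand for Bmp8b. Of all 50-base windows in the Bmp8a coding sequence, 17.7% also occurred in Bmp8b. The treatment of reads that map to several places is not stated in the labels, and the values of both genes are therefore uncertain.

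Bmp8b had 1114, 1126, 929 and 1081 scaled counts in WT replicates 1, 2, 4 and 5. It had 480.5, 1499, 1154 and 1482 scaled counts in mutant replicates 1, 2, 4 and 5. Mutant replicate 1 was far below all other libraries and the other 3 mutants were above every WT library. The mean was 1063 ± 90.9 in WT and 1154 ± 476 in the mutants, and the log2 fold change was -0.01 with a 95% interval of -0.74 to 0.72 (limma adjusted p = 0.992). Without mutant replicate 1 it was 0.37 with an adjusted p of 0.0808, and the sign also turned with array weights, edgeR and DESeq2. Mutant replicate 1 was the same library that was lowest for 8 of 10 extraembryonic ectoderm markers. There Tfap2c was at 1296 against 3524 to 8956 in the other 7 libraries. These markers are of the tissue from which Bmp8b is known, and their part in the Bmp8b value was not tested. Exons of Bmp8b share 133 bases with Ppie and 339 with Gm17244 on the other strand.

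Bmp8a did not pass the test. WT replicates 1, 2, 4 and 5 had 161, 102, 58.0 and 88.8 scaled counts, and mutant replicates 1, 2, 4 and 5 had 80.8, 106, 288 and 203. The groups overlapped, and the 2 highest embryos were mutant replicates 4 and 5, the libraries with the largest decidua marker sums. The log2 fold change was 0.63 with a 95% interval of -0.36 to 1.63 (limma adjusted p = 0.385), and without those libraries it was -0.055.

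Bmp1, the metalloprotease (chr14:70474558-70520234, minus strand), had 864, 1004, 999 and 740 scaled counts in WT replicates 1, 2, 4 and 5 and 1104, 1133, 1272 and 993 in the mutants. Mutant replicate 5 alone fell within the WT range. The mean went from 902 ± 126 to 1125 ± 115, which did not pass the threshold (limma log2 fold change 0.33 with an SE of 0.12, adjusted p = 0.114).

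Levels of different genes were compared per kilobase of the longest annotated transcript. In WT embryos Bmp4 came first with 506 ± 103 scaled counts per kilobase, followed by Bmp2 with 362 ± 39.2 and Bmp8b with 361 ± 30.9. The ranges of Bmp4 and Bmp2 overlapped between libraries, as did those of Bmp2 and Bmp8b. Bmp1 with 168 ± 23.5, Bmp6 with 165 ± 28.3 and Bmp7 with 160 ± 68.5 formed an overlapping middle group. Bmp8a with 42.7 ± 18.03 and Bmp5 with 0.40 ± 0.65 scaled counts per kilobase were lowest and did not overlap with any other. In the mutants Bmp4 had 1827 ± 486.5, with a range just above that of Bmp2 at 967 ± 315. Bmp7 followed with 786 ± 127 scaled counts per kilobase and overlapped with Bmp2. Bmp8b had 392 ± 162, Bmp1 210 ± 21.4 and Bmp6 195 ± 35.9, and neighbours in this order overlapped. Bmp8a had 70.5 ± 39.5 and Bmp5 had 56.7 ± 11.8 scaled counts per kilobase, also overlapping. With all annotated exons merged instead, Bmp1 had 102 in WT and ranked below Bmp6 and Bmp7, and Bmp8b had 274.

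The summed level of the 7 ligands, Bmp1 left out, was 1834, 1387, 1649 and 1514 scaled counts per kilobase in WT replicates 1, 2, 4 and 5. It was 4957, 3994, 4254 and 3975 in mutant replicates 1, 2, 4 and 5, so that the sum was higher in every mutant library than in any WT library. Scaled counts are relative to each library and give no amount per embryo. The mean sum was 1596 ± 191 in WT and 4295 ± 460 in the mutants. As shares of this sum, Bmp7 went from 9.73% ± 3.37 to 18.2% ± 1.13, Bmp8b from 22.9% ± 3.79 to 9.49% ± 4.45 and Bmp6 from 10.3% ± 1.74 to 4.61% ± 1.10, each without overlap between genotypes. Bmp4 made up 31.4% ± 2.73 and 42.2% ± 7.49, with overlap, and Bmp2 22.9% ± 3.30 and 22.5% ± 7.06. Bmp6 and Bmp8b, whose shares were lower in the mutants, did not pass as lower in their own scaled counts.

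**Figure D3:**
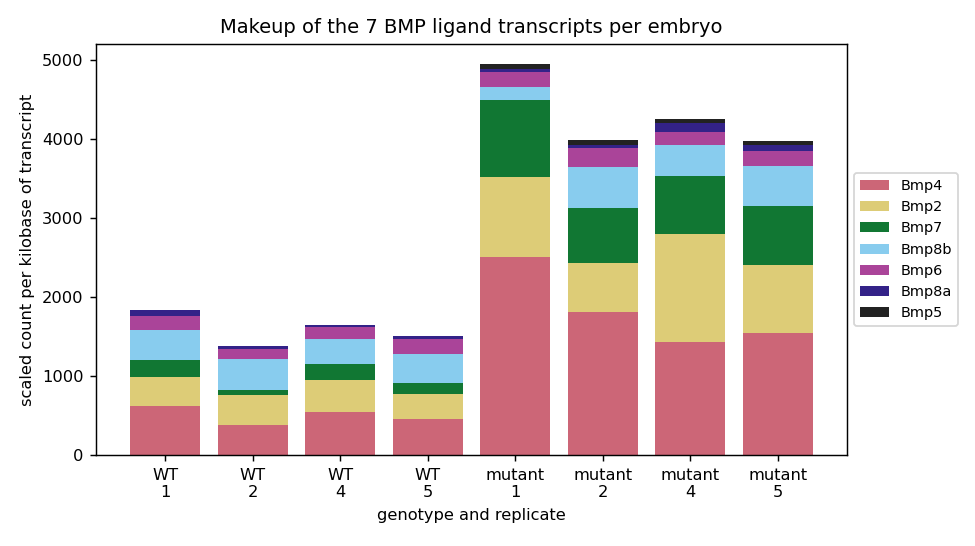
Scaled counts per kilobase of the 7 BMP ligands stacked in each of the 8 libraries, with a bar per embryo starting at 0. The bars total 1387 to 1834 in WT and 3975 to 4957 in the mutants, and Bmp4, Bmp2 and Bmp7 make up most of each mutant bar.

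Ratios of reads within a library do not depend on its scaling. Overlap was judged on differences of log2(scaled count + 1), where the added 1 matters for genes near 0, such as Bmp5 in WT. On this scale 15 of the 28 pairs among the 8 genes did not overlap between genotypes, against 24.0% of all pairs of tested genes. The pairs share genes and in part restate the 4 calls above. All pairs with Bmp5, which entered the test only through its mutant libraries, were among the 15. Bmp4 over Bmp6 was 1.36 to 2.06 reads per read in WT and 4.29 to 7.505 in the mutants. Among the genes that rose, Bmp4 over Bmp7 was 1.48 to 3.03 in WT and 1.10 to 1.47 in the mutants. Its nearest libraries, WT replicate 4 and mutant replicate 2, were almost tied at 1.477 and 1.472. Bmp2 over Bmp4 overlapped, with 0.986 to 1.63 in WT and 0.587 to 1.65 in the mutants.

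**Figure D4:**
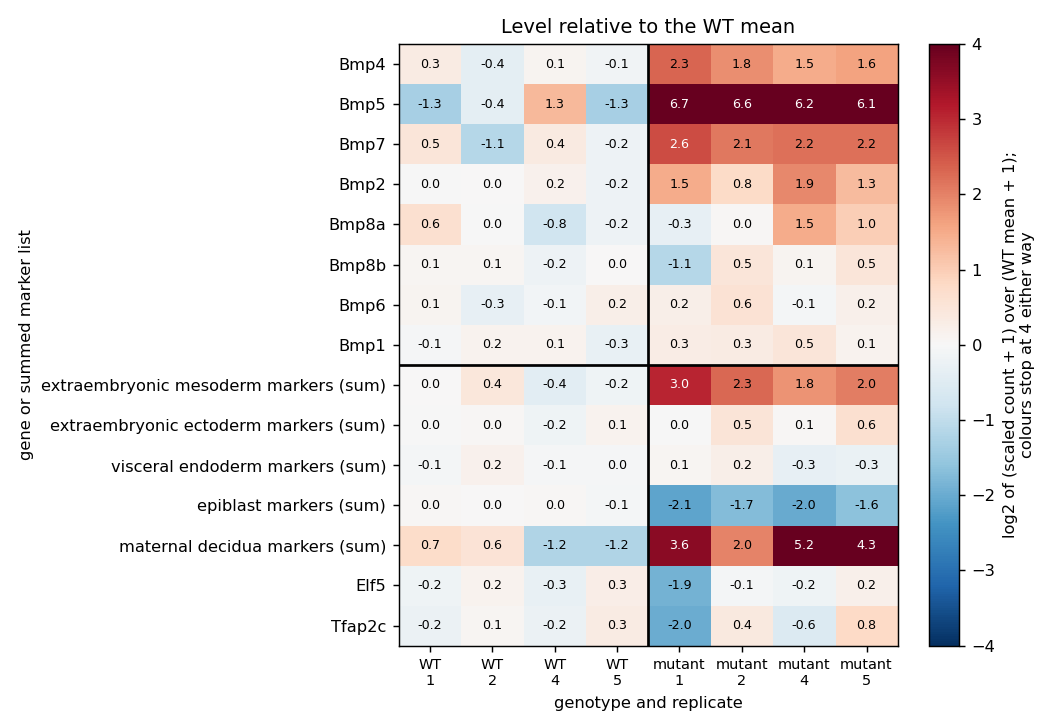
Log2 ratio of each library to the WT mean (scaled count plus 1) for the 8 genes, 5 summed marker lists and 2 extraembryonic ectoderm markers, with 1 column per library and colours that stop at 4 in either direction. Bmp4, Bmp5 and Bmp7 and the extraembryonic mesoderm sum are high in all mutants, Bmp8b is lowest in mutant replicate 1, and the decidua sum is highest in mutant replicate 4.

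The genes most like each ligand that rose were those with the smallest root mean square difference from it over the 8 libraries, on the log2 scale after centring each gene. For Bmp4 these were Efnb3 (0.127), Pycr1 (0.161) and Igfbp4 (0.161). Bmp2 was followed most closely by Gpc6 (0.164), Kcnip3 (0.168) and Mllt3 (0.170). Bmp7 had Evx1 (0.190), a homeobox gene of the primitive streak, Spo11 (0.230), the meiotic recombination protein, and Tgfb1 (0.239), a TGF-β ligand. Nearest to Bmp5 was Hoxb2 (0.547), a homeobox gene that was also nearly uncounted in WT, with 1.63 ± 1.23 scaled counts against 219 ± 47.5 in the mutants. Tmem132c (0.896) and Kcna2 (0.912) came next.

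Spo11 is also the nearest protein-coding gene to Bmp7 on 1 side, 37378 bases away. It had 21.3, 5.68, 19.9 and 11.8 scaled counts in WT replicates 1, 2, 4 and 5 and 136, 53.4, 74.4 and 83.4 in the mutants. Its lowest WT library and highest mutant library were those of Bmp7, WT replicate 2 and mutant replicate 1, which restates the likeness above. Its log2 fold change was 2.55 (SE 0.46, limma adjusted p = 0.00598). On the other side of Bmp7, Tfap2c did not pass (log2 fold change -0.32, adjusted p = 0.726). Neighbours here are the nearest protein-coding genes that do not overlap a member, so overlapping ones such as Txndc5 and Ppie were not looked at. Among these neighbours, Bloc1s5 on 1 side of Bmp6 was the only other that passed. It rose from 466 ± 28.6 to 649 ± 31.8 (log2 fold change 0.48, limma adjusted p = 0.0115). The tested neighbours of Bmp2 (Fermt1), Bmp4 (Ddhd1 and Cdkn3) and Bmp5 (Hmgcll1) did not pass, with log2 fold changes of -0.35, 0.28, 0.41 and 0.0046. Nor did those of the Bmp8 genes (Pabpc4, Macf1, Trit1 and Hpcal4), from -0.27 to 0.29, or Snrnp48 beside Bmp6, at 0.02.

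Other genes of the pathway were described from lists written with earlier results of these data known. Each was set against the 8.03% of tested genes called higher and 7.55% called lower. Extracellular antagonists mostly did not pass, with 1 of 13 tested genes higher, 1 lower and a median log2 fold change of -0.08. Fstl1, a follistatin-like secreted protein, rose from 979 ± 93.9 to 3791 ± 1038 scaled counts (log2 fold change 1.92, limma adjusted p = 0.000267). Cer1, the antagonist cerberus of the anterior visceral endoderm, fell from 2364 ± 414 to 726 ± 362 (log2 fold change -1.88, adjusted p = 0.0147). Its adjusted p was 0.0851 without WT replicates 2 and 5, and its log2 fold change was -2.49 without mutant replicates 4 and 5. Noggin (Nog) had 448 ± 345 and 294 ± 34.5 scaled counts and chordin (Chrd) 347 ± 106 and 357 ± 192, neither past the threshold, and these were added after their values were seen.

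Of 10 receptors and coreceptors 2 were higher and 1 lower, with a median log2 fold change of 0.21. Acvrl1, the type I receptor ALK1 of endothelium, rose from 43.2 ± 13.7 to 204 ± 107 (log2 fold change 2.13, limma adjusted p = 0.00471). Eng, the coreceptor endoglin of the same cells, rose from 164 ± 41.3 to 413 ± 114 (log2 fold change 1.32, adjusted p = 0.00598). Bmpr1b, a type I receptor, fell from 101 ± 24.5 to 14.01 ± 11.1 (log2 fold change -3.12, adjusted p = 0.00737). Without WT replicates 2 and 5 the adjusted p was 0.0587 for Eng and 0.0666 for Bmpr1b. The main type I receptor of the early embryo, Bmpr1a, had 3268 ± 285 and 3478 ± 406 and did not pass, and it is named here after its value was seen.

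Of 11 transducers and intracellular or membrane inhibitors 3 were higher and 1 lower, with a median of 0.27. Smad6, an inhibitory SMAD that BMP signals induce, rose from 1576 ± 63.6 to 3659 ± 257 (log2 fold change 1.21, limma adjusted p = 3.00e-05). Bambi, a receptor-like inhibitor, rose from 871 ± 81.1 to 3008 ± 866 (log2 fold change 1.75, adjusted p = 0.000308). Smad1, a signal-transducing SMAD, rose from 4225 ± 635 to 5969 ± 349 (log2 fold change 0.51, adjusted p = 0.0132). Its adjusted p was 0.0518 without WT replicates 2 and 5 and 0.0517 without mutant replicates 4 and 5. Skil, a repressor that binds SMADs, fell from 5069.9 ± 157 to 2595 ± 494 (log2 fold change -0.98, adjusted p = 0.000735).

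Of 14 tested genes known as BMP targets 10 were higher and 0 lower, with a median of 1.14. Msx1, a homeobox target, rose from 4337 ± 540 to 14853 ± 3003 (log2 fold change 1.76, limma adjusted p = 0.000118). Its relative Msx2 rose from 977 ± 120 to 5476 ± 2513 (log2 fold change 2.39). The T-box gene Tbx3 had a log2 fold change of 1.31 and the LIM homeobox gene Isl1 one of 3.63, from 24.4 ± 13.3 to 305 ± 163 scaled counts. The others called higher were Id1, Hand1, Gata2, Gata3, Prdm1 and Tbx20. Id2, Id3, Id4 and Tfap2a did not pass, with limma adjusted p of 0.357, 0.0980, 0.279 and 0.458. Several of the genes called higher also mark tissues, and Hand1 stands in the lists of extraembryonic ectoderm and mesoderm markers too. The sum over this list was highest in mutant replicate 1, as was the extraembryonic mesoderm sum, whose part in these values was not tested.

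The remaining lists gave few calls. Of 5 tested GDF ligands 0 were higher and 1 lower, which was Gdf3, a ligand of pluripotent cells, with 122 ± 109 and 11.0 ± 3.93 scaled counts (log2 fold change -3.07, limma adjusted p = 0.00518). Its adjusted p was 0.0505 without mutant replicates 4 and 5, WT replicate 2 alone had 284, and without WT replicates 2 and 5 the log2 fold change was -2.41. Of 6 tested proteases related to Bmp1, their enhancers and proprotein convertases, 2 were higher and 0 lower. Pcolce, the enhancer of the procollagen cleavage that Bmp1 carries out, rose from 107 ± 11.7 to 838 ± 309 (log2 fold change 2.87, adjusted p = 0.000320). Pcsk5, a proprotein convertase, rose from 107 ± 48.0 to 1036 ± 633 (log2 fold change 3.09, adjusted p = 0.00629), with an adjusted p of 0.0572 without WT replicates 2 and 5. Its mutant values, 837, 274, 1758 and 1278 in replicates 1, 2, 4 and 5, had the same order as the decidua marker sums, whose part in them was not tested. Its log2 fold change dropped to 2.27, with an adjusted p of 0.0489, when mutant replicates 4 and 5 were left out. Exons of Acvrl1, Eng, Bmpr1a, Chrd, Pcolce, Tbx3 and Gata3 overlap those of other genes on the opposite strand.

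**Figure D5:**
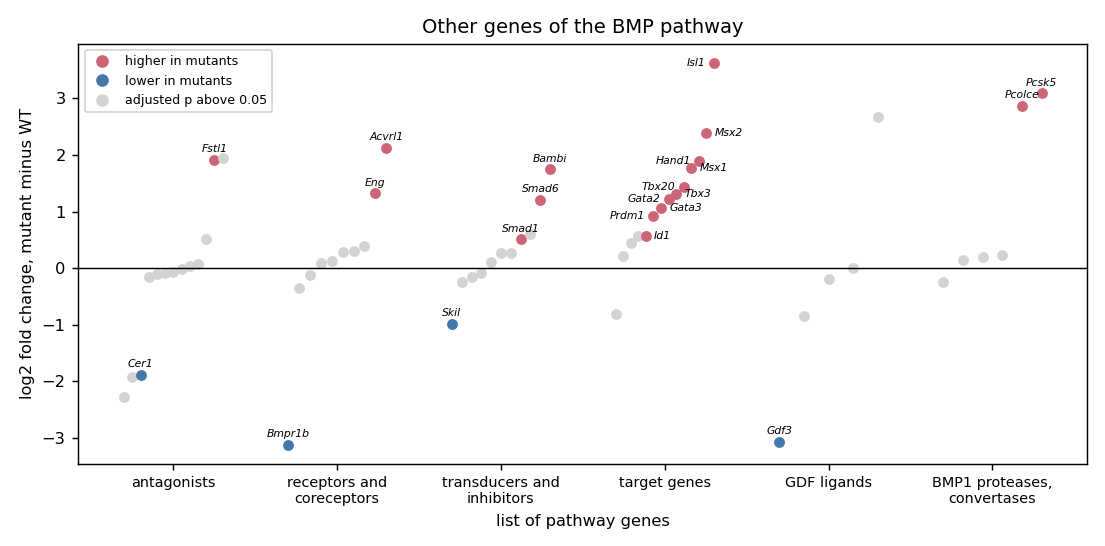
Log2 fold change (mutant minus WT) of each tested gene in 6 lists of the BMP pathway, with 1 point per gene and colour for the limma call. Points called higher are most frequent among the target genes, 10 of 14, and the 2 lowest called points are Bmpr1b and Gdf3.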

How the data were processed

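Per the labels' protocols, whole-embryo RNA was purified with a miRNeasy kit, copied and amplified with SMART-Seq v4, which keeps no strand, and built into KAPA Hyper Prep libraries. The notes of the submitters name mm10, DESeq, HTSeq 0.5.3, STAR 2.5.0a and cutadapt 1.6 (per the submitters' processing notes), but neither settings nor an annotation release. The authors' deposited values are a signal, that is, gene counts after division by a size factor. All values were whole multiples of 1 read within 0.01 (100% in every column), so reads were recovered.

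The main test was limma 3.58.1 in R 4.3.3 on log2(scaled count + 1), genotype as the only term (trended prior, two-sided, Benjamini-Hochberg adjustment over all tested genes, threshold 0.05). Genes with 10 or more scaled counts in 4 or more libraries were tested, 15600 of 19950. Fold changes on this scale understate changes of low genes. Replicates differed by 17.3 to 75.3 chi-square per degree of freedom, so none agreed within sampling noise. Same-numbered replicates did not deviate together (r from -0.193 to -0.0357), so numbers were not used as pairs. PCR reads carry no molecular identifiers, and counting intervals therefore describe counting error alone. Alternative settings were median centring and quantile normalization, pseudocounts of 0.5 and 5, limma array weights, a filter on a mean of 50 or none, edgeR 4.0.16 and DESeq2 1.42.0 on recovered reads (1261 genes higher and 1169 lower with edgeR), a replicate block, and libraries left out. Scripts were tested on simulated data.

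The 8 genes, taken by symbol, and the pathway and marker lists were chosen with earlier results of these data known. Named genes are the 8 members whatever their result, from each list up to 4 called genes per direction with the smallest p, the 3 genes most like each called member, and the nearest protein-coding genes. A few list genes are not reported here. Coordinates, lengths and coding sequences come from GENCODE M21 on GRCm38 (19878 IDs matched), and upstream sequences from RefSeq.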

Additional observations from a re-analysis of the deposited data

Results flagged for a closer look

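Among 132 groups of 4 libraries, the values of 66 genes in each genotype, 9 held a library far from the other 3 by Dixon's criterion, and chance flags about 1 in 20, or 6.6. Among the BMP genes this was Bmp7 in mutant replicate 1, with 3575 scaled counts against 2549.9 to 2718 in the other mutants. The same library was far above the other mutants for Bambi, at 4293 against 2461 to 2756, and for Isl1, at 547 against 199 to 249. Mutant replicate 2 was apart for Nog, at 243 against 305 to 318, and for Skil, at 3336 against 2326 to 2360.3. Id1 was low in mutant replicate 5, at 3026 against 3603 to 3688. In WT, replicate 2 was apart for Acvrl1 (63.5 against 33.1 to 38.1), Gdf3 (284 against 47.6 to 80.5) and Rgma (77.7 against 192 to 200.1).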

How the results depend on the processing

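The counts of BMP genes called, 4 higher and 0 lower, were the same in all 20 alternatives, and Bmp2, Bmp4, Bmp5 and Bmp7 passed in each of them, with the highest adjusted p 0.0440 for Bmp2. DESeq2 on recovered reads called 1832 genes higher and 1606 lower. Leaving out WT replicates 2 and 5 gave 528 genes higher and 493 lower over the whole table, 0 antagonists lower, 1 receptor higher and 0 lower, and 1 protease or convertase higher. Leaving out mutant replicates 4 and 5 gave 707 genes higher and 723 lower, 0 GDF ligands lower, and a log2 fold change of -0.055 for Bmp8a. Bmp8b turned to 0.12 with DESeq2, 0.12 with edgeR, 0.24 with array weights and 0.050 without WT replicates 2 and 5. DESeq2 called 3 antagonists lower and array weights 2. With each library left out in turn, genes lower ran from 734 (without WT replicate 1) to 1144 and were 743 without WT replicate 4. Antagonists lower ran from 1 to 2 (2 without mutant replicate 1 or 2), GDF ligands higher from 0 to 1 (1 without WT replicate 2) and the log2 fold change of Bmp8b from -0.18 to 0.37. With merged exons, Bmp1 had 102 and 127 scaled counts per kilobase in WT and the mutants, and Bmp8b 274 in WT. The cause was not tested. Since numbers do not pair the embryos, the replicate block is given only here: it left 4 BMP genes higher and 0 lower, with adjusted p of 0.00199 for Bmp4 and 0.00620 for Bmp2, and 910 genes higher and 789 lower overall. Depth limits Bmp5 in WT, where only 7 reads were counted.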
